A study of Mus musculus with 60 samples.

Results

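The transcriptomes of dnOGAh and control (CON) mouse hearts collected at zeitgeber time (ZT) 8, in the later light phase, were compared across 18119 genes. All libraries whose labels give ZT8 were used, 5 dnOGAh and 5 CON, which are 10 of the 60 libraries in the series. The study followed both genotypes over the 24 h day, at ZT0, ZT4, ZT8, ZT12, ZT16 and ZT20, to ask how sustained protein O-GlcNAcylation affects the cardiac circadian clock and its output. The other 50 libraries were used here for the estimate of spread and to test what sets ZT8 apart. All mice were males of the C57BL/6 strain under a 12 h light/12 h dark cycle, with lights on at ZT0. The dnOGAh mice carry a doxycycline-responsive transgene encoding EGFP and a dominant negative rat splice variant of O-GlcNAcase (TRE-EGFP-dnOGA), together with αMHC-rtTA, which drives it in cardiomyocytes. CON mice carry αMHC-rtTA alone, so the rtTA transactivator is common to both groups. Both genotypes received doxycycline from 10 weeks of age, as a 100 µg injection followed by a diet with 1 g/kg, for 2 weeks, and hearts were collected at 12 weeks. Each library came from biventricular RNA of 1 heart, with polyadenylated RNA read as paired ends of 75 bases. Changes within cardiomyocytes and changes in the mix of heart cells are measured together, and fewer cells of a type cannot be told apart from less RNA per cell.

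O-GlcNAcylation is the attachment of a single sugar, N-acetylglucosamine, to serine and threonine residues of intracellular proteins. O-GlcNAc transferase (Ogt) adds it, O-GlcNAcase (Oga) removes it, and the hexosamine biosynthetic pathway supplies the donor, UDP-GlcNAc. The circadian clock of cardiomyocytes is a transcriptional loop in which BMAL1 and CLOCK bind E-box elements and activate the Per, Cry and Rev-erb genes, whose products repress the loop in turn. Its output factors, such as DBP, TEF and HLF, bind D-box elements of further genes, and ZT8 falls where many of these output transcripts are near their daily peak.

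The 10 libraries held 13372360 to 52441717 counts assigned to genes. Values are given as CPM, counts per 1e+06 after TMM scaling, and changes as log2 fold changes fitted by edgeR with their standard errors (SE). After this scaling all tested genes summed to 1055390 to 1152040 CPM in CON and 702061 to 817486 CPM in dnOGAh libraries. Summed CPM are therefore not shares of a library, and their comparison between the groups depends on the scaling. The cardiomyocyte transcripts Myh6, Tnnt2, Tnni3, Actc1 and Myl2 ranked between 8 and 18 of all genes by mean CPM at ZT8. Genes encoded by the mitochondrial genome took 22.8% to 33.8% of the counts of CON libraries and 8.15% to 20.8% of those of dnOGAh libraries (exact permutation test, two-sided, p = 0.00794, the smallest that 5 against 5 allows, adjusted p = 0.0106 over 4 measures). The 20 highest genes took 33.6% to 42.6% in CON and 15.5% to 27.6% in dnOGAh hearts, with the same p. Total counts did not separate the groups (exact permutation p = 0.849).

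The dnOGAh hearts differed in how far they lay from CON. Over 10391 genes with a mean of at least 5 CPM, the median absolute log2 difference from the CON mean of the same time was 0.516, 0.532, 0.332, 0.363 and 0.523 in dnOGAh replicates 1 to 5. Replicates 3 and 4 were the nearest to CON. CON hearts lay 0.105 to 0.166 from the mean of the others at ZT8, and the 25 dnOGAh hearts of the other times lay 0.277 to 0.542 from their CON mean, with a median of 0.377. The 25 CON hearts of the other times lay at 0.107 to 0.629, with a median of 0.144. The farthest of them lay beyond every dnOGAh heart. Replicates 3 and 4 also stood apart in Myh6, the α-myosin heavy chain whose promoter drives the transactivator, at 1909, 2051, 7043, 6823 and 1277 CPM in dnOGAh replicates 1 to 5. CON hearts had 10123 to 15518 CPM of Myh6 at ZT8, and the 25 dnOGAh hearts of the other times had 1945 to 14777, with a median of 5513. Leaving out replicates 3 and 4 was therefore added as an alternative after seeing the data, and its value is given for the described genes on which those hearts weighed most. Because those hearts lay nearest to CON, this choice by itself tends to enlarge the differences. In the opposite setting, without replicates 1, 2 and 5, 23 calls of named genes were lost.

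Oga itself, to whose mouse gene (listed as Mgea5) reads from the rat transgene can map, was raised in every dnOGAh heart. It had 50.6, 53.1, 65.5, 61.4 and 59.3 CPM in CON replicates 1 to 5 and 552, 272, 576, 799 and 279.7 CPM in dnOGAh replicates 1 to 5, and the groups did not overlap. This gave a log2 fold change of 3.10 (SE 0.34, edgeR adjusted p = 1.81e-10), beside 2.97 for the mean of the other 5 times. Among the dnOGAh hearts Oga was lowest in replicates 2 and 5, the farthest from CON, and highest in replicates 3 and 4, the nearest to CON. Ogt, which adds the modification, had 60.2, 58.4, 55.5, 65.7 and 58.7 CPM in CON replicates 1 to 5 and 66.6, 68.4, 60.01, 78.5 and 61.6 CPM in dnOGAh replicates 1 to 5, with a log2 fold change of 0.17 (SE 0.09, edgeR adjusted p = 0.143).

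In all, 8347 of the 18119 genes (46.1%) differed between dnOGAh and CON hearts at ZT8 at an adjusted p under 0.05. Of these, 4513 (24.9% of tested genes) were higher and 3834 (21.2%) were lower in dnOGAh hearts, and 4437 changed by at least 2-fold. The 5 dnOGAh hearts lay above all 5 CON hearts in 4086 genes (22.6%) and below all of them in 3516 (19.4%). Without dnOGAh replicates 3 and 4 the count was 8530, and without replicates 1, 2 and 5 it was 3826, of which 2512 were higher. At the other times 7706 (ZT0, 42.5%), 5924 (ZT4, 32.7%), 5770 (ZT12, 31.8%), 7387 (ZT16, 40.8%) and 7241 (ZT20, 40%) genes passed the same test. The median absolute log2 fold change over all tested genes was 0.588 at ZT8 and 0.435 to 0.54 at the other times. Both the count and the median were thus highest at ZT8, and the test of that difference gene by gene is given further on. The other times include 3 libraries set apart earlier, dnOGAh replicate 3 at ZT12 and replicate 4 of both genotypes at ZT4. Counts at ZT4 and ZT12 without them were not made.

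**Figure D1:**
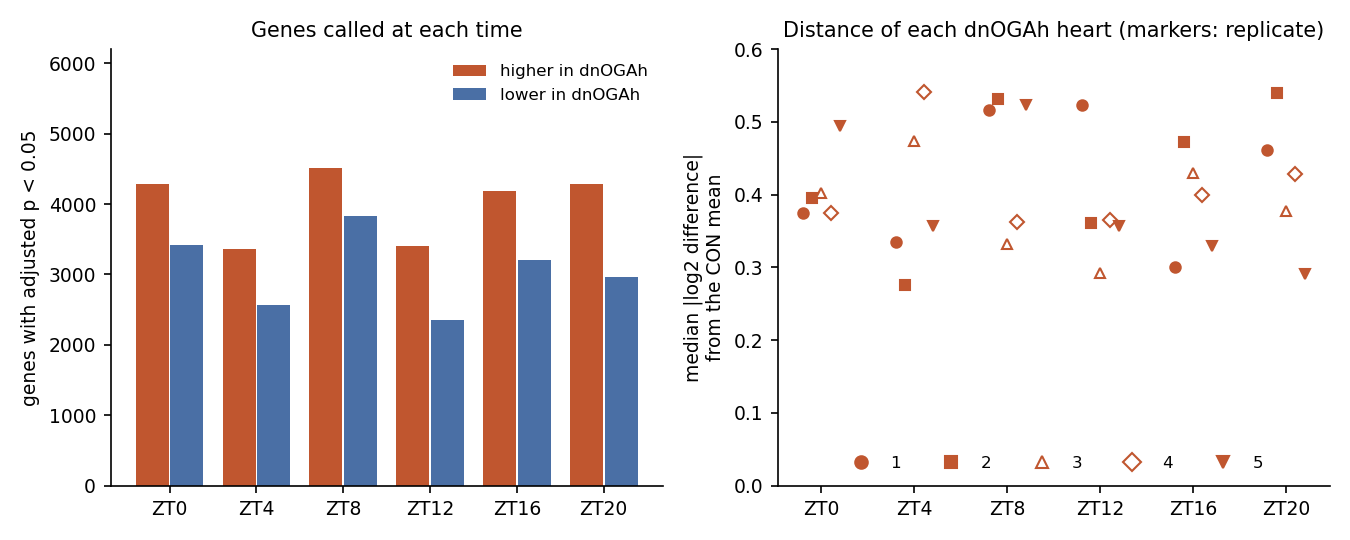
Left, genes with an edgeR adjusted p under 0.05 between dnOGAh and CON hearts at each time, split by direction. Right, the median absolute log2 difference of each dnOGAh heart from the CON mean of its time, with 1 marker shape per replicate: at ZT8, 3 hearts lay at 0.516 to 0.532 and replicates 3 and 4 at 0.332 and 0.363.

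The enzymes around UDP-GlcNAc were mostly higher in dnOGAh hearts. Of 11 tested genes of the hexosamine pathway and O-GlcNAc cycling, 8 were higher and 0 lower, with a median log2 fold change of 0.88 (0.04 over all tested genes). Gfpt2, a form of the rate-limiting enzyme that commits fructose-6-phosphate to the pathway, had 6.97, 9.01, 12.6, 12.4 and 14.0 CPM in CON replicates 1 to 5 and 24.3, 23.5, 36.7, 24.3 and 23.7 CPM in dnOGAh replicates 1 to 5. All 5 dnOGAh values exceeded the CON values, and replicate 3 was the highest of them. Its log2 fold change was 1.27 (SE 0.21, edgeR adjusted p = 1.45e-06). Uap1l1, a relative of the enzyme that makes UDP-GlcNAc, ranged from 10.6 to 15.4 CPM in CON and 27.2 to 49.5 CPM in dnOGAh hearts, with a log2 fold change of 1.48 (SE 0.21, edgeR adjusted p = 5.7e-08). Amdhd2, which removes the acetyl group from N-acetylglucosamine-6-phosphate, rose by 1.00 on the log2 scale (SE 0.20). Uap1, Gnpda2 and Ogt did not pass the test, with log2 fold changes of 0.03, 0.11 and 0.17.

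Contractile transcripts fell. Of 16 tested sarcomere genes 15 were lower in dnOGAh hearts and 0 higher, with a median log2 fold change of -1.11, and in all 15 the groups did not overlap. Csrp3, a Z-disc protein, was the exception at -0.24. The summed level of the list was 91970 to 101984 CPM in CON and 32554 to 54359 CPM in dnOGAh hearts. Myl2, the ventricular regulatory myosin light chain, had 15688, 13401, 13124, 11947 and 14297 CPM in CON replicates 1 to 5 and 2343, 1438, 5074, 3876 and 1814 CPM in dnOGAh replicates 1 to 5. Replicates 3 and 4 were the highest of the dnOGAh hearts and were still below every CON heart. The fitted log2 fold change was -2.23 (SE 0.36, edgeR adjusted p = 1e-06), and without dnOGAh replicates 3 and 4 it was -2.88. Over all alternatives the smallest decrease of Myl2 was -1.61. Myl3, the essential light chain, fell by 1.82 and Tnni3, cardiac troponin I, by 1.88 on the log2 scale. Tcap, the titin cap of the Z-disc, had 2636, 2385, 2105, 2788 and 2985 CPM in CON replicates 1 to 5 and 464, 377, 1167, 830.3 and 319 CPM in dnOGAh replicates 1 to 5, again with no overlap and with dnOGAh replicates 3 and 4 the highest of their group. Its log2 fold change was -2.03 (SE 0.34, edgeR adjusted p = 2.08e-06), or -2.74 without those hearts. The smallest decrease of Tcap over all alternatives was -1.37.

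Genes that move calcium and shape the action potential were also lower. Of 10 calcium handling genes 9 fell and 1 rose, with a median of -0.96. Hrc, a calcium-binding protein of the sarcoplasmic reticulum lumen, had 1139, 1248, 1340.0, 1368 and 1407 CPM in CON replicates 1 to 5 and 121, 83.9, 474, 400.2 and 67.2 CPM in dnOGAh replicates 1 to 5. The range within dnOGAh hearts was wide, with replicates 1, 2 and 5 far below replicates 3 and 4, and it did not reach the CON range. The log2 fold change of Hrc was -2.50 (SE 0.46, edgeR adjusted p = 8.62e-06), and without replicates 3 and 4 it was -3.85. Its smallest decrease over all alternatives was -1.57. Pln, the phospholamban that restrains the calcium pump, ranged from 1181 to 1407 CPM in CON and 185 to 493 CPM in dnOGAh hearts and fell by 2.00 on the log2 scale, and Atp2a2, the SERCA2 pump itself, ranged from 6995 to 8661 CPM in CON and 1369 to 4508 CPM in dnOGAh hearts and fell by 1.52. Without replicates 3 and 4 the log2 fold changes of Pln and Atp2a2 were -2.59 and -2.29. Over all alternatives their smallest decreases were -1.41 and -0.83, and the call of Atp2a2 was lost in 1 of them. Slc8a1, the sodium-calcium exchanger, was the member that rose, with a log2 fold change of 0.60 (SE 0.19, edgeR adjusted p = 0.0057). It had 139 CPM in dnOGAh replicate 3, inside the CON range of 136 to 160.2, and 322 in replicate 5, and its call was lost without replicate 5 (log2 fold change 0.44).

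Among 19 electrophysiology genes 14 were lower and 1 was higher, with a median of -1.15. Kcnip2, the KChIP2 subunit of the fast transient outward potassium current, had 60.5, 51.7, 54.1, 50.1 and 55.6 CPM in CON replicates 1 to 5 and 2.23, 3.74, 9.37, 7.21 and 4.07 CPM in dnOGAh replicates 1 to 5. The lowest CON heart had 50.1 CPM and the highest dnOGAh heart 9.37, and Kcnip2 was among the 10 lowest log2 fold changes at -3.35 (SE 0.42, edgeR adjusted p = 2.63e-09), or -4.03 without dnOGAh replicates 3 and 4. Its smallest decrease over all alternatives was -2.71. The pacemaker channels Hcn2 and Hcn4 fell by 1.92 and 1.88 on the log2 scale, and Hcn2 ranged from 46.3 to 76.5 CPM in CON and 5.96 to 34.3 CPM in dnOGAh hearts (log2 fold change -2.94 without dnOGAh replicates 3 and 4). Over all alternatives the smallest decrease of Hcn2 was a log2 fold change of -1.10. Kcne1, a potassium channel subunit named here after its value was seen, was the 1 member that rose (1.70 ± 0.754 CPM in CON and 4.28 ± 1.57 CPM in dnOGAh hearts, SD, n = 5, log2 fold change 1.35). Gja1, connexin 43 of the gap junctions, did not pass the test, at -0.33.

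Transcripts of energy metabolism fell. All 31 tested TCA cycle and respiratory chain genes were lower in dnOGAh hearts, with no overlap between the groups in any of them and a median log2 fold change of -1.20. These genes are encoded in the nucleus and come beside the lower mitochondrially encoded share given above. Cox7a1, a striated muscle subunit of cytochrome c oxidase, had 806, 1159.5, 1166, 1001 and 1229 CPM in CON replicates 1 to 5 and 164, 174, 536, 322 and 112 CPM in dnOGAh replicates 1 to 5. It fell by 2.04 on the log2 scale (SE 0.44), and replicate 3 was the highest dnOGAh heart. Without replicates 3 and 4 the log2 fold change of Cox7a1 was -2.84. Over all alternatives its smallest decrease was -1.32, and the call was lost in 1 of them. Idh2, the mitochondrial isocitrate dehydrogenase that yields NADPH, ranged from 1359.9 to 1759 CPM in CON and 260.0 to 579.8 CPM in dnOGAh hearts and had a log2 fold change of -2.02 (SE 0.25, edgeR adjusted p = 3.77e-09). The median of the list was -1.49, -1.59, -0.84, -0.88 and -1.42 in dnOGAh replicates 1 to 5 relative to the CON mean, so the decrease was present in each heart.

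Of 31 genes of fatty acid uptake and oxidation 28 were lower, 1 was higher and 2 did not pass, with a median of -1.39. Etfa, which passes electrons from acyl-CoA dehydrogenases to the respiratory chain, had 683, 713, 756, 723 and 698 CPM in CON replicates 1 to 5 and 125, 128, 251.6, 278 and 129 CPM in dnOGAh replicates 1 to 5. The smallest CON value was 683 CPM and the largest dnOGAh value 278. The log2 fold change was -1.97 (SE 0.28, edgeR adjusted p = 5.34e-08). Eci1, an enoyl-CoA isomerase needed for unsaturated fatty acids, fell by 1.94 and Mlycd, which removes malonyl-CoA, by 1.91 on the log2 scale.

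Angptl4, a secreted inhibitor of lipoprotein lipase and a target of fatty acid-activated PPARs, was the member that rose, with 13.4, 3.27, 6.58, 4.65 and 2.10 CPM in CON replicates 1 to 5 and 25.6, 26.2, 22.6, 32.9 and 101 CPM in dnOGAh replicates 1 to 5. dnOGAh replicate 5 was far above the other 4, which themselves exceeded each CON heart. Its log2 fold change was 2.82 (SE 0.55, edgeR adjusted p = 2.62e-05), and 2.18 without replicate 5. Pdk4, the kinase that inhibits pyruvate dehydrogenase, had 80.4 to 148 CPM in CON and 91.4 to 321 CPM in dnOGAh hearts with overlap, and a log2 fold change of 0.69 (SE 0.37, edgeR adjusted p = 0.122). Cpt1b, the muscle carnitine palmitoyltransferase, did not pass at -0.22.

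For glucose uptake and glycolysis 14 of 22 genes were lower and 5 higher (22.7%, beside 24.9% of all tested genes), with a median of -0.71. Slc2a4, the insulin-responsive glucose transporter GLUT4, had 497, 457, 469, 468 and 475 CPM in CON replicates 1 to 5 and 95.0, 82.2, 224, 197 and 84.4 CPM in dnOGAh replicates 1 to 5. CON hearts were within a narrow range, and all dnOGAh hearts were below it. This gave a log2 fold change of -1.79 (SE 0.26, edgeR adjusted p = 9.6e-08), or -2.44 without dnOGAh replicates 3 and 4. Eno3, the muscle enolase, fell by 2.19 on the log2 scale, from 1904 to 2114 CPM in CON to 258 to 749 CPM in dnOGAh hearts, and without replicates 3 and 4 its log2 fold change was -2.92. Over all alternatives the smallest decreases of Slc2a4 and Eno3 were -1.16 and -1.52. The 5 higher members, named after their values were seen, were Slc2a1, the transporter GLUT1 (log2 fold change 0.74), Hk1 (0.46), Pfkp (1.52), Pfkfb3 (1.20) and Pgam1 (1.32).

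**Figure D2:**
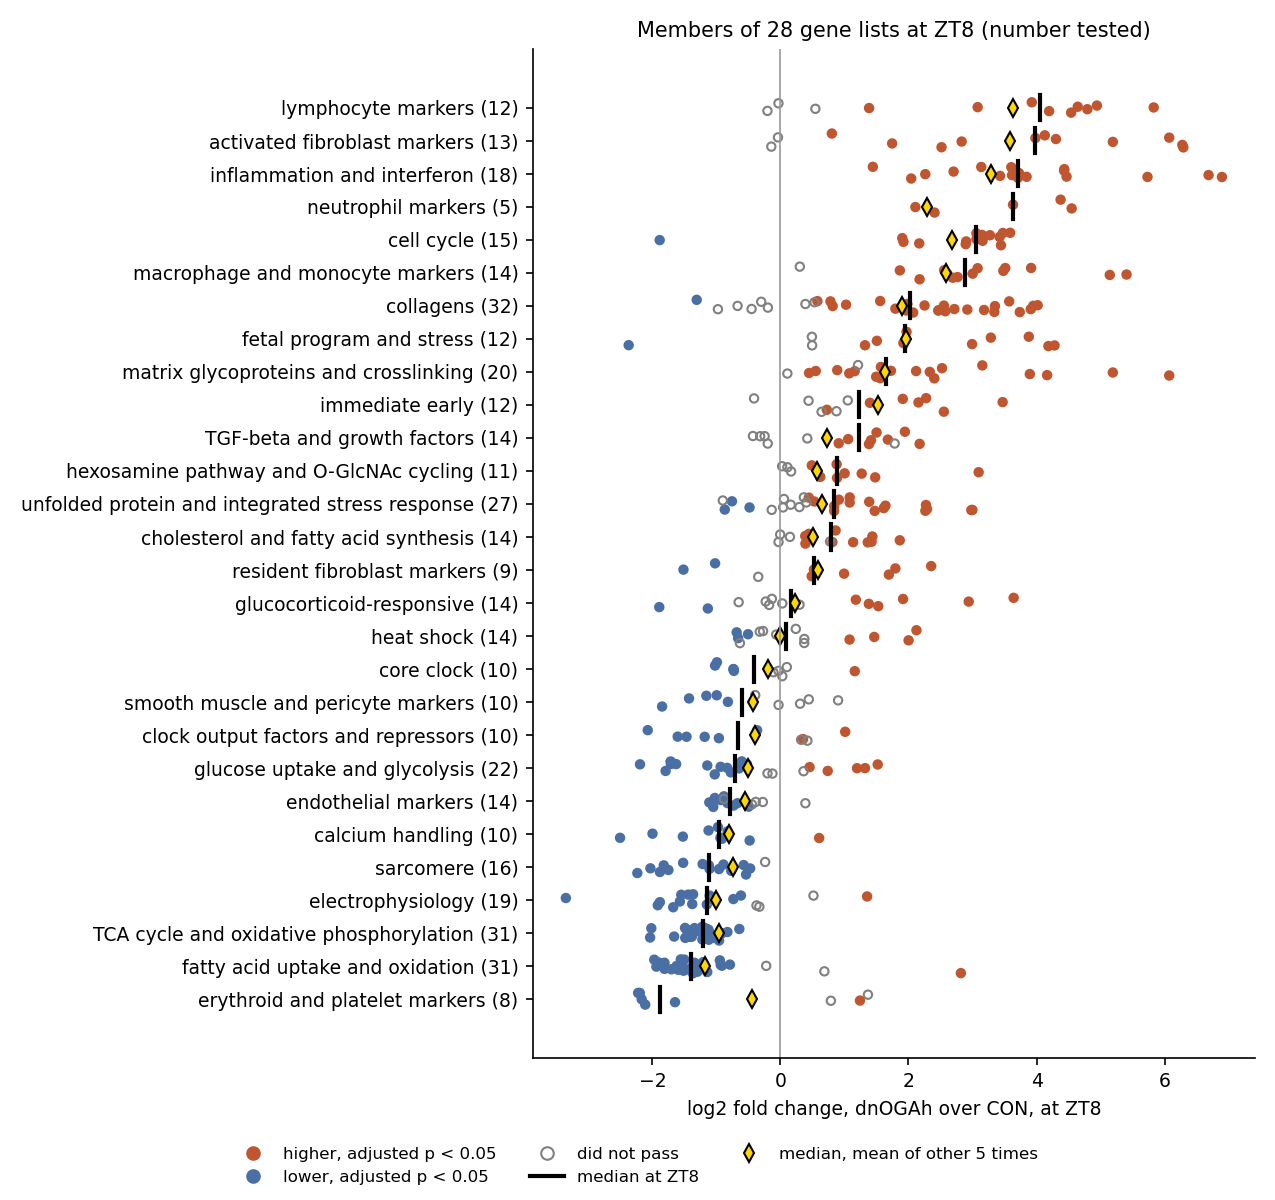
Log2 fold change (dnOGAh over CON at ZT8) of every tested member of 28 gene lists, with the number tested in parentheses; filled points passed the test and open points did not. Black bars give the median at ZT8 and yellow diamonds the median of the mean difference at the other 5 times; the 31 TCA cycle and oxidative phosphorylation genes all lie to the left of 0 and the 18 inflammation genes all to the right.

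Transcripts of the fetal gene program and of cardiac stress mostly rose, with 9 of 12 higher, 1 lower and a median of 1.94. Nppa, atrial natriuretic peptide, had 12.8, 27.2, 37.6, 97.1 and 37.2 CPM in CON replicates 1 to 5 and 717, 873, 607, 372 and 570.1 CPM in dnOGAh replicates 1 to 5. The lowest dnOGAh heart, replicate 4, was above the highest CON heart, also numbered 4. Its log2 fold change was 3.88 (SE 0.78, edgeR adjusted p = 4.56e-05), and that of Nppb, B-type natriuretic peptide, was 3.29 (SE 0.41). Nmrk2, a muscle nicotinamide riboside kinase of NAD synthesis, had 17.2, 16.6, 19.1, 13.4 and 17.5 CPM in CON replicates 1 to 5 and 391, 442, 90.8, 152 and 549.8 CPM in dnOGAh replicates 1 to 5. It was lowest in dnOGAh replicates 3 and 4, both above CON, and had a log2 fold change of 4.28 (SE 0.54, edgeR adjusted p = 3.51e-09). Gdf15, a secreted stress cytokine, rose by 4.18 and Ankrd1, the cardiac ankyrin repeat protein, by 1.92 on the log2 scale. Myh7, the β-myosin heavy chain often counted with this program, went the other way (449.6 ± 67.2 CPM in CON and 86.9 ± 70.9 CPM in dnOGAh hearts, SD, n = 5, log2 fold change -2.37) and was named after its value was seen. Atrial marker transcripts did not separate the groups, with 107 to 675 CPM in sum in CON and 65.8 to 515 CPM in dnOGAh hearts and with 1 of 5 (Stard10) passing the test, lower by 1.53.

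Extracellular matrix transcripts rose in all dnOGAh hearts. Of 32 collagen genes 24 were higher, with a median log2 fold change of 2.03, and Col13a1, a transmembrane collagen, was lower (-1.31, from 1.18 ± 0.400 CPM in CON to 0.474 ± 0.132 CPM in dnOGAh hearts). Without dnOGAh replicates 3 and 4, 23 were higher and 4 lower. Col1a1, a chain of the main fibrillar collagen, had 80.1, 126, 118, 124 and 106 CPM in CON replicates 1 to 5 and 1513, 2026, 1278, 1225 and 1349 CPM in dnOGAh replicates 1 to 5. The fitted log2 fold change was 3.74 (SE 0.36, edgeR adjusted p = 3.41e-12) with no overlap. Col3a1 had 143, 216, 231, 179 and 161 CPM in CON replicates 1 to 5 and 3019, 3633, 2328, 2587 and 2401 CPM in dnOGAh replicates 1 to 5. The lowest dnOGAh heart was replicate 3 and the highest CON heart also replicate 3, with a wide gap between them. The log2 fold change was 3.91 (SE 0.40, edgeR adjusted p = 2.07e-11). Col4a1, of the basement membrane, had a smaller log2 fold change of 1.02 (SE 0.17, edgeR adjusted p = 1.78e-06).

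Of 20 further matrix and crosslinking genes 18 were higher and 0 lower (median 1.65), and of 13 markers of activated fibroblasts 11 were higher and 0 lower (median 3.98). Timp1, an inhibitor of matrix metalloproteinases, had 1.39, 5.11, 9.53, 1.96 and 5.36 CPM in CON replicates 1 to 5 and 398, 395, 216, 233 and 281 CPM in dnOGAh replicates 1 to 5. It separated the groups without overlap, with a log2 fold change of 6.07 (SE 0.56, edgeR adjusted p = 1.76e-12). Tnc, tenascin C of injured tissue, ranged from 0.957 to 2.94 CPM in CON and 91.5 to 198 CPM in dnOGAh hearts, and Lox, which crosslinks collagen, from 1.91 to 3.54 CPM in CON and 51.8 to 128 CPM in dnOGAh hearts. Their log2 fold changes were 6.29 and 5.19. Cthrc1, a marker of matrix-producing fibroblasts in the heart, was at or below 0.337 CPM in every CON heart and at 8.94 to 21.3 CPM in dnOGAh hearts. Fn1 (fibronectin) and Thbs1 (thrombospondin 1) rose by 3.89 and 4.16 on the log2 scale, and dnOGAh replicates 3 and 4 were the highest hearts for Thbs1, at 117 and 116 CPM. Acta2, the smooth muscle actin that also marks myofibroblasts, did not pass at -0.14.

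Markers of resident fibroblasts were mixed, with 6 of 9 higher (66.7%, beside 24.9% of all tested genes). The 2 lower ones (22.2%) were a share close to the 21.2% of all tested genes. Col15a1 rose by 1.79 on the log2 scale, while Scara5 (16.2 to 21.4 CPM in CON and 3.38 to 12.1 CPM in dnOGAh hearts) fell by 1.51 (log2 fold change -2.41 without dnOGAh replicates 3 and 4) and Gsn, the actin-severing gelsolin, by 1.02. Over all alternatives the smallest decrease of Scara5 was -0.755, and the calls of Scara5 and Gsn were each lost in 1 of them. Of 14 endothelial markers 9 were lower and 0 higher, with a median of -0.78. Kdr, the main VEGF receptor, had 74.2, 100.3, 104, 95.9 and 90.9 CPM in CON replicates 1 to 5 and 38.3, 33.2, 46.3, 63.9 and 33.9 CPM in dnOGAh replicates 1 to 5 without overlap and a log2 fold change of -1.11 (SE 0.24, edgeR adjusted p = 0.000106). Of 10 smooth muscle and pericyte markers 5 were lower and 0 higher. The summed endothelial markers were 1701 to 1821 CPM in CON and 839 to 1256 CPM in dnOGAh hearts, where the sum over all tested genes was also lower. The part of a changed mix of cells in these values was not tested.

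Immune transcripts rose. Of 14 macrophage and monocyte markers 13 were higher and 0 lower, and their summed level was 356 to 519.9 CPM in CON and 2370 to 4423 CPM in dnOGAh hearts. Ccr2, the chemokine receptor of recruited monocytes, had 1.25, 1.55, 3.46, 2.08 and 2.17 CPM in CON replicates 1 to 5 and 133, 115, 45.2, 47.98 and 99.3 CPM in dnOGAh replicates 1 to 5. dnOGAh replicates 3 and 4 had the smallest increases, and its log2 fold change was 5.41 (SE 0.48, edgeR adjusted p = 1.01e-12). Cd68, a lysosomal macrophage protein, rose by 3.91 on the log2 scale. Cd163, a scavenger receptor of resident macrophages named after its value was seen, did not pass at 0.30. Of 12 lymphocyte markers 9 were higher, and the B cell genes Cd79a and Ms4a1 did not pass. Cd3e of the T cell receptor complex was at 0 to 0.288 CPM in CON and had 7.91, 2.71, 3.65, 7.21 and 30.2 CPM in dnOGAh replicates 1 to 5, highest in replicate 5, without which its log2 fold change was 4.89 in place of 5.83. All 5 neutrophil markers passed as higher, among them Csf3r, the G-CSF receptor, at a log2 fold change of 4.55 (SE 0.49, edgeR adjusted p = 8.38e-11).

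All 18 inflammation and interferon genes were higher without overlap, with a median log2 fold change of 3.71. Spp1, osteopontin, had 0.881, 3.04, 4.22, 1.09 and 1.34 CPM in CON replicates 1 to 5 and 259.9, 259, 84.9, 156 and 277 CPM in dnOGAh replicates 1 to 5. The lowest dnOGAh heart and the highest CON heart were both numbered 3, and the groups were far apart. Spp1 had a log2 fold change of 6.69 (SE 0.74, edgeR adjusted p = 1.45e-10). Cxcl10, an interferon-induced chemokine, was at 0 to 0.928 CPM in CON and 19.8 to 67.8 CPM in dnOGAh hearts, and Lgals3, galectin 3, ranged from 2.64 to 7.85 CPM in CON and 146 to 318 CPM in dnOGAh hearts. The medians of the list were 3.75, 3.82, 2.93, 2.68 and 3.73 in dnOGAh replicates 1 to 5. In the cell cycle list 14 of 15 genes were higher, with Birc5, survivin, at a log2 fold change of 3.59 (SE 0.34, edgeR adjusted p = 3.32e-12). Cenpf, a centromere protein also expressed in heart muscle, was lower (27.3 ± 8.10 CPM in CON and 7.39 ± 2.85 CPM in dnOGAh hearts, SD, n = 5, log2 fold change -1.89) and was named after its value was seen.

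**Figure D3:**
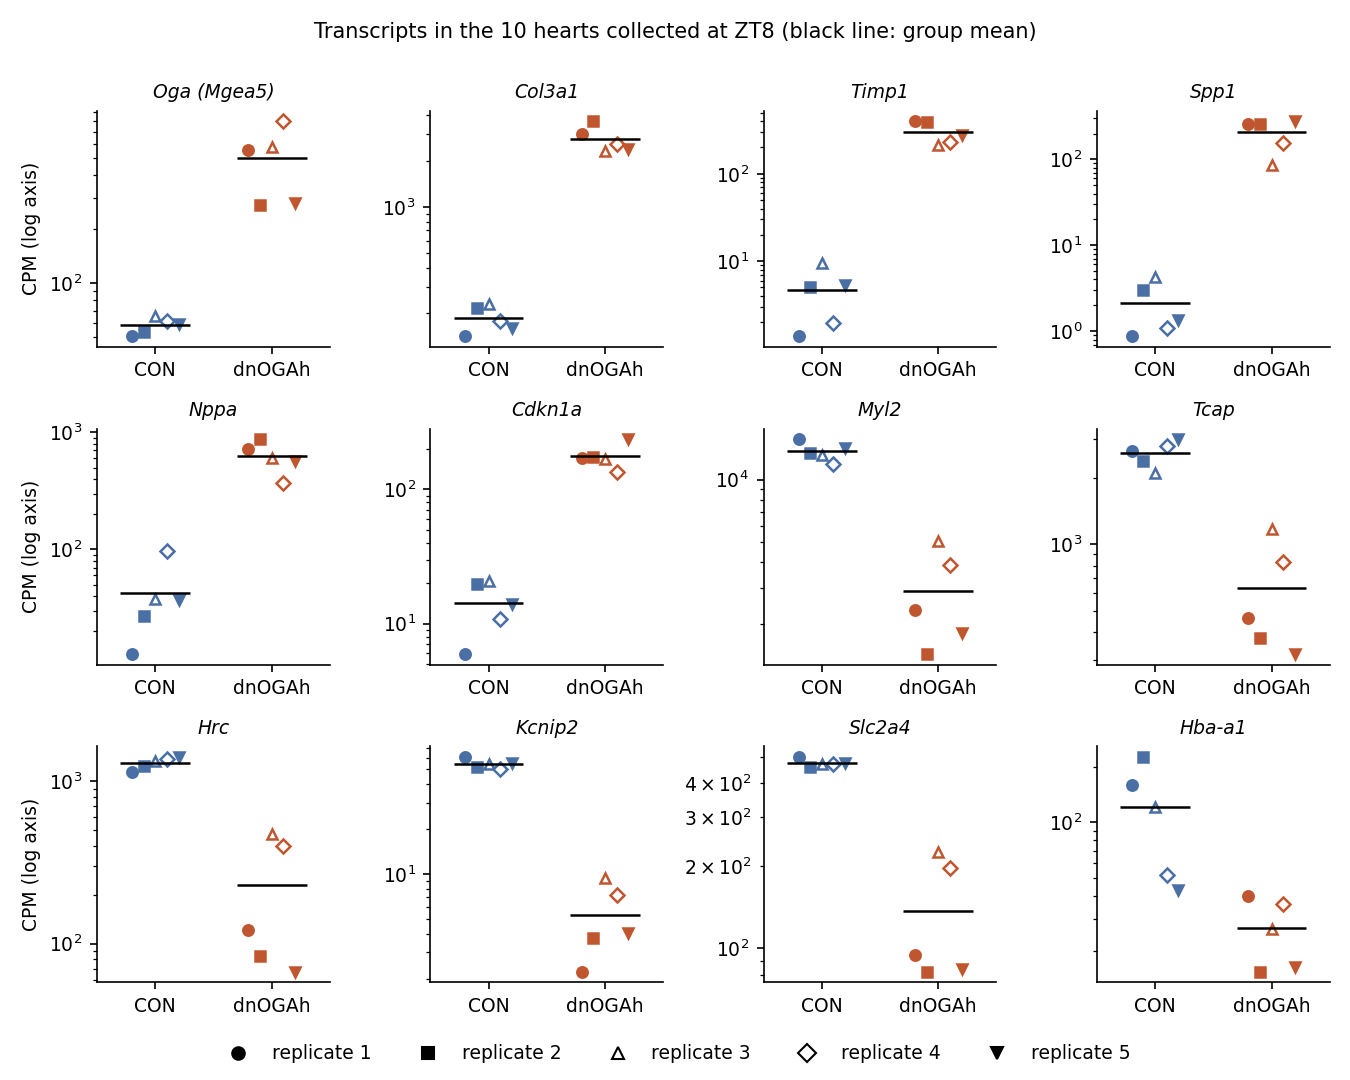
CPM of 12 transcripts in each of the 5 CON (blue) and 5 dnOGAh (orange) hearts at ZT8, on log axes that differ between panels; marker shapes give the replicate and black lines the group mean. No panel shows overlap between the groups, and open orange markers (replicates 3 and 4) lie nearest to CON for Myl2, Tcap, Hrc, Kcnip2 and Slc2a4.

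Stress and growth factor pathways moved in part. Of 27 unfolded protein and integrated stress response genes 16 were higher and 3 lower (Herpud1, Atf5 and Shmt2), and Atf3, a stress-induced transcription factor, ranged from 2.50 to 8.46 CPM in CON and 37.1 to 62.3 CPM in dnOGAh hearts with a log2 fold change of 3.00 (SE 0.37, edgeR adjusted p = 1.73e-09). Of 14 TGF-beta and growth factor genes 8 were higher and 0 lower, among them Inhbb, the activin B subunit, at 1.94 and Tgfbr1, a TGF-beta receptor, at 1.50. Of 14 cholesterol and fatty acid synthesis genes 10 were higher. Of 14 heat shock genes 4 were higher (28.6%) and 3 lower (21.4%), shares close to the 24.9% and 21.2% of all tested genes, and without dnOGAh replicates 3 and 4 it was 3 higher and 5 lower. Hspb1, a small heat shock protein abundant in muscle, had the largest log2 fold change of that list at 2.12 (SE 0.26, edgeR adjusted p = 1.39e-09). Of 12 immediate early genes 7 were higher, but this count was 5, with 1 lower, without dnOGAh replicates 3 and 4. Egr3, a zinc finger factor of that list, was highest in those hearts, with 1.25, 1.49, 0.759, 2.00 and 0.510 CPM in CON replicates 1 to 5 and 7.28, 9.54, 21.1, 25.0 and 7.22 CPM in dnOGAh replicates 1 to 5 and a log2 fold change of 3.47, or 2.66 without them. The medians of the immediate early genes were 0.56, 0.78, 1.54, 1.71 and 0.71 in dnOGAh replicates 1 to 5, whereas the sarcomere medians were -1.31, -1.39, -0.73, -0.82 and -1.13. The hearts with smaller decreases of contractile transcripts were thus those with larger immediate early transcripts.

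The 10 largest increases among genes with a mean of at least 5 CPM and no overlap were Slfn4, Sprr1a, Il1rn, Cxcl10, Oas3, Chil3, Plac8, Spp1, Ms4a4c and Tnc, with log2 fold changes of 6.29 to 7.68. Sprr1a, a small proline-rich protein of stressed cells, had 0.661, 2.07, 8.86, 0.803 and 0.574 CPM in CON replicates 1 to 5 and 526, 691, 205, 197 and 668 CPM in dnOGAh replicates 1 to 5. CON replicate 3 stood above the other CON hearts and remained far below each dnOGAh heart, and without it the log2 fold change of Sprr1a was 8.81 in place of 7.60. Il1rn, the interleukin 1 receptor antagonist, was at 0 to 0.319 CPM in CON and 16.0 to 27.2 CPM in dnOGAh hearts. Slfn4, Chil3, Plac8 and Ms4a4c are expressed in myeloid cells and Oas3 is an interferon-induced antiviral enzyme, and their CON levels were at most 1.94 CPM, so that the fitted fold changes rest on few CON reads. Reads that match Slfn4 or Ms4a4c and a close paralog equally can be tallied as not uniquely aligned, which makes their values less certain.

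Among the 10 largest decreases were Mylk4, Lrtm1, Kcnip2, Cryba4, Gm45670, A530016L24Rik, Gm49477, Efnb3 and Inmt, with log2 fold changes of -3.82 to -3.14. Mylk4, a myosin light chain kinase family member of striated muscle, had 54.2, 46.0, 31.7, 48.05 and 48.3 CPM in CON replicates 1 to 5 and 2.71, 1.20, 5.12, 5.42 and 1.59 CPM in dnOGAh replicates 1 to 5. Its log2 fold change was -3.82 (SE 0.54, edgeR adjusted p = 6.7e-08), with no overlap, and -4.61 without dnOGAh replicates 3 and 4. Lrtm1, a leucine-rich repeat membrane protein, had 316, 333, 369, 294 and 294 CPM in CON replicates 1 to 5 and 5.52, 6.83, 76.7, 58.7 and 5.18 CPM in dnOGAh replicates 1 to 5. dnOGAh replicates 3 and 4 held far more than the other dnOGAh hearts, and all 5 were below CON. A log2 fold change of -3.39 became -5.79 without replicates 3 and 4, and its call was lost without replicates 1, 2 and 5 (-2.24). Efnb3, a membrane-bound ephrin ligand, ranged from 56.5 to 69.9 CPM in CON and 2.19 to 13.8 CPM in dnOGAh hearts, with a log2 fold change of -3.15, or -4.53 without replicates 3 and 4. Over all alternatives the smallest decreases of Mylk4 and Efnb3 were -3.11 and -2.21.

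The core clock was lower on its repressor arm and higher for Bmal1. Of 10 core clock transcripts 5 were lower, 1 was higher and 4 did not pass, with a median log2 fold change of -0.42 and no overlap for 4 of the lower ones. The counts were the same without dnOGAh replicates 3 and 4. Bmal1 (listed as Arntl), the activator whose transcript is close to its daily low at ZT8, had 1.47, 3.39, 4.89, 1.54 and 1.53 CPM in CON replicates 1 to 5 and 6.70, 5.24, 5.23, 5.79 and 4.86 CPM in dnOGAh replicates 1 to 5. The dnOGAh hearts were above CON except for CON replicate 3, which lay just above dnOGAh replicate 5. This gave a log2 fold change of 1.16 (SE 0.27, edgeR adjusted p = 0.000376), and 1.50 without CON replicate 3. Clock and Npas2, the partners of BMAL1, did not pass, at 0.10 and -0.03.

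Per3, a period gene, had 39.8, 26.6, 22.4, 38.1 and 33.3 CPM in CON replicates 1 to 5 and 17.1, 16.4, 16.0, 16.1 and 15.1 CPM in dnOGAh replicates 1 to 5. The dnOGAh values lay close together and below all CON values, with a log2 fold change of -0.99 (SE 0.27, edgeR adjusted p = 0.00196). Per2 had 22.02, 13.7, 8.27, 23.9 and 20.7 CPM in CON replicates 1 to 5 and 5.47, 10.4, 14.1, 11.6 and 11.9 CPM in dnOGAh replicates 1 to 5 with overlap, and its log2 fold change was -0.73 (SE 0.29, edgeR adjusted p = 0.0312). The call of Per2 was lost in 6 of the alternatives, among them without CON replicate 1, 4 or 5. Per1 had 62.0, 54.8, 41.1, 88.3 and 80.7 CPM in CON replicates 1 to 5 and 34.4, 69.6, 98.5, 66.1 and 65.7 CPM in dnOGAh replicates 1 to 5, and with a log2 fold change of 0.03 (SE 0.31) it did not pass. CON replicate 3 had the lowest Per1, Per2, Per3, Dbp, Tef, Hlf and Ciart of the CON hearts and the highest Bmal1. Results for Bmal1, Per2 and Dbp without it were a log2 fold change of 1.50, -0.91 and -1.73.

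Cry2, a cryptochrome repressor, had 45.8, 40.8, 36.2, 52.2 and 47.8 CPM in CON replicates 1 to 5 and 18.6, 18.1, 26.2, 25.8 and 21.2 CPM in dnOGAh replicates 1 to 5. It fell without overlap, by 1.02 on the log2 scale (SE 0.16), while Cry1 did not pass at -0.11. Nr1d1 (REV-ERBα), the nuclear receptor that represses Bmal1, had 82.6, 73.6, 72.5, 96.0 and 89.0 CPM in CON replicates 1 to 5 and 43.2, 41.1, 56.5, 64.3 and 45.1 CPM in dnOGAh replicates 1 to 5. The highest dnOGAh heart, replicate 4, was below the lowest CON heart, and the log2 fold change was -0.73 (SE 0.24, edgeR adjusted p = 0.0101). Nr1d2 (REV-ERBβ) ranged from 63.6 to 88.0 CPM in CON and 34.8 to 62.5 CPM in dnOGAh hearts and also fell by 0.73 on the log2 scale.

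Of 10 output factors and clock repressors 6 were lower and 2 higher, with a median of -0.66. Dbp, the D-box binding output factor, had 96.4, 84.9, 62.5, 123 and 121 CPM in CON replicates 1 to 5 and 23.7, 28.6, 47.7, 42.7 and 17.9 CPM in dnOGAh replicates 1 to 5. Each CON heart exceeded each dnOGAh heart, and the log2 fold change was -1.60 (SE 0.30, edgeR adjusted p = 1.26e-05), or -2.07 without dnOGAh replicates 3 and 4. Tef and Hlf, its relatives, ranged from 124 to 177 CPM in CON and 61.6 to 94.8 CPM in dnOGAh hearts for Tef and from 34.3 to 63.3 CPM in CON and 3.70 to 21.0 CPM in dnOGAh hearts for Hlf. Their log2 fold changes were -0.96 and -2.07, the latter being the largest of the 20 clock transcripts and -2.93 without dnOGAh replicates 3 and 4. Over all alternatives the smallest decreases of Dbp and Hlf were -1.11 and -1.33. Ciart (CHRONO), a repressor of BMAL1 and CLOCK, had 21.3, 19.6, 13.5, 24.4 and 24.7 CPM in CON replicates 1 to 5 and 8.95, 5.58, 10.8, 7.92 and 4.15 CPM in dnOGAh replicates 1 to 5. It fell without overlap, with a log2 fold change of -1.47 (SE 0.29, edgeR adjusted p = 4.03e-05). Rora, an activating receptor at ROR elements, fell by 0.36 on the log2 scale, a call lost in 9 alternatives.

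Bhlhe40 (DEC1), an E-box repressor, was higher with 29.7, 40.5, 31.7, 43.6 and 54.3 CPM in CON replicates 1 to 5 and 77.2, 72.9, 87.4, 84.5 and 81.0 CPM in dnOGAh replicates 1 to 5. All dnOGAh hearts exceeded CON, by 1.01 on the log2 scale (SE 0.21). Cipc, an inhibitor of CLOCK, rose by 0.35. Nfil3, the repressor at D-boxes, and Bhlhe41 did not pass, at 0.42 (edgeR adjusted p = 0.0787) and 0.32, although Nfil3 passed in 5 and Bhlhe41 in 2 of the 23 alternatives.

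Promoter sequences show which of these genes carry the elements named above close to their start sites. RefSeq windows (GRCm38.p6) of 250 bases before and 50 after the start were matched for 17 of the 20 clock transcripts, in 23 windows, and searched on both strands for the E-box CACGTG, the D-box TTATGTAA or TTACGTAA and the ROR element. Of the 32851 windows of all genes 7.15% held the E-box, 1.06% the D-box and 0.384% the ROR element. Among the 17 genes 6 had an E-box (Per1, Cry1, Tef, Bhlhe41, Ciart and Cipc), Per3 had the D-box at 2 positions and Bmal1 had a ROR element. Of these 6, Tef and Ciart were lower at ZT8, Cipc was higher, and Per1, Cry1 and Bhlhe41 did not pass. The windows are shown for Ciart (chr3:95882229-95882478, minus strand, 3 E-boxes), Tef (chr15:81802423-81802672, plus strand, 1 E-box) and Per3 (chr4:151044666-151044915, minus strand, 2 D-boxes), each being the 250 bases before the start, because these 3 transcripts fell without overlap and hold the elements of the clock and of its output. For Bmal1 the 30 bases around the ROR element are shown (chr7:113207527-113207556, plus strand, bases 17 to 46 from the start), where REV-ERBs and RORs compete, since Bmal1 rose while both REV-ERB transcripts fell. Capitals mark the motif in each, and a match is a description of the letters, with no binding measured.
Ciart: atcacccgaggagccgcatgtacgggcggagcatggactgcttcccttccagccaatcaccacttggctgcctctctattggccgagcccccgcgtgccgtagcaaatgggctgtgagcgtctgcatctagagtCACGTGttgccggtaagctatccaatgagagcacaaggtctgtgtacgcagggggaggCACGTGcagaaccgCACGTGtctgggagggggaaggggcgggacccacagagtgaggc
Tef: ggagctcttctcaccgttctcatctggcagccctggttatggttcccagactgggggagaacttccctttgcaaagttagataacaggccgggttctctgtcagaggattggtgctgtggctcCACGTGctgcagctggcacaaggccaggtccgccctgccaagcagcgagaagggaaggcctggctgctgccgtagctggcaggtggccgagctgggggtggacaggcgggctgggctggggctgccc
Per3: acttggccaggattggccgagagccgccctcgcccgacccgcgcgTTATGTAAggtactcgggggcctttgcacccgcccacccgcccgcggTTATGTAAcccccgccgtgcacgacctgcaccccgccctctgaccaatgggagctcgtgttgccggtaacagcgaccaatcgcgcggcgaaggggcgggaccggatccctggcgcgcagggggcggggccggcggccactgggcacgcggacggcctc
Bmal1 (Arntl): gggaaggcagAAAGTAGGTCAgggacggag

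The 4 metabolic and signaling genes that the study names were lower at ZT8 with no overlap. Dgat2, which completes triglyceride synthesis, had 442, 431, 376, 459 and 449 CPM in CON replicates 1 to 5 and 81.9, 79.0, 171, 156 and 99.1 CPM in dnOGAh replicates 1 to 5. Its log2 fold change was -1.88 (SE 0.25, edgeR adjusted p = 1.78e-08), with replicates 3 and 4 again the highest dnOGAh hearts. Rhobtb1, an atypical GTPase, fell by 1.07, Pik3r1, the regulatory subunit of PI3-kinase, by 0.61 and Nampt, the rate-limiting enzyme of NAD salvage, by 0.63 on the log2 scale. Nampt ranged from 91.9 to 110.5 CPM in CON and 62.7 to 77.5 CPM in dnOGAh hearts. The study took these genes from its earlier work on the cardiomyocyte clock.

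What sets ZT8 apart from the other 5 times was tested directly, as the difference of the genotype effect at ZT8 from the mean of the effects at ZT0, ZT4, ZT12, ZT16 and ZT20. No gene of 18119 passed (0%) by edgeR, with a smallest adjusted p of 0.931. An unadjusted p under 0.05 was reached by 797 genes (4.4%), 360 with a more positive and 437 with a more negative difference at ZT8, and by 972 genes with DESeq2 and 888 with limma voom, where again 0 passed. Without dnOGAh replicates 3 and 4, which were chosen from their measured values, 42 genes passed (2636 with an unadjusted p under 0.05), 41 of them more negative at ZT8, so this count depends on those hearts. The same contrast passed for 0 genes at ZT0, ZT4, ZT12 and ZT16 and for 3 genes (0.0166%) at ZT20. Between ZT8 and each other time singly, 0 genes passed, and 354 (ZT0), 924 (ZT4), 602 (ZT12), 472 (ZT16) and 1175 (ZT20) had an unadjusted p under 0.05. Of the 8347 genes called at ZT8, 8330 (99.8%) had the same sign in the mean of the other times. Across genes, which are not independent, the ZT8 effects correlated with that mean at r = 0.93 with a slope of 1.08.

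The differences that came closest are described with their unadjusted p, since none holds after adjustment over all genes. Tcap had the smallest p, with a ZT8 effect of -2.03 against -0.76 at the other times, a difference of -1.27 (SE 0.36, unadjusted p = 0.000961, edgeR adjusted p = 0.931). CON hearts had 1045 ± 211 (ZT0), 1441 ± 232 (ZT4), 2579 ± 344 (ZT8), 2610.3 ± 162 (ZT12), 1828 ± 267 (ZT16) and 1016 ± 165 CPM (ZT20), each with n = 5. dnOGAh hearts had 631 ± 359 CPM at ZT8 and their highest mean, with the widest spread, at ZT12 (1467 ± 1448 CPM), where replicate 3 stood apart with Oga at 70.1 CPM. Stard3, the neighbor of Tcap in the RefSeq gene order and an endosomal cholesterol carrier, had the next smallest p, with -0.83 at ZT8 against -0.35. The strand setting of the counting is not given in the sources used here, so reads of adjacent genes may not be fully separated. Of the 10 smallest p values, Prkab1 (an AMPK subunit, -1.02 against -0.58) and Plcd3 (a phospholipase C, -0.59 against -0.11) were more negative at ZT8 like Tcap and Stard3. Rcbtb1, Spata6, Ampd3 (AMP deaminase), Hist2h3c2, Cdkn1a and Cblb (a ubiquitin ligase) were more positive.

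All 16 sarcomere genes had a more negative effect at ZT8 than in the mean of the other times, 5 of them with an unadjusted p under 0.05. The list median was -1.11 against -0.73. Of all 18119 tested genes, 13497 likewise lay beyond the mean of the other times in the direction of their own ZT8 effect. Genes whose sign differed between the 2 are included, and taking the direction from the ZT8 estimate by itself raises this count. Myl2 differed by -0.85 (SE 0.38, unadjusted p = 0.0298, edgeR adjusted p = 0.931) and Myl3 by -0.72. Without dnOGAh replicates 1, 2 and 5, the difference for Myl2 was -0.23 and for Tcap -0.61. Cox6a2, a muscle subunit of cytochrome c oxidase, had a log2 fold change of -1.66 at ZT8 and -0.97 at the other times. Over the 34 gene lists, the absolute median was larger at ZT8 than at each other time in 20, and second in 6. The lists share genes and hearts, so this count is a description.

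**Figure D4:**
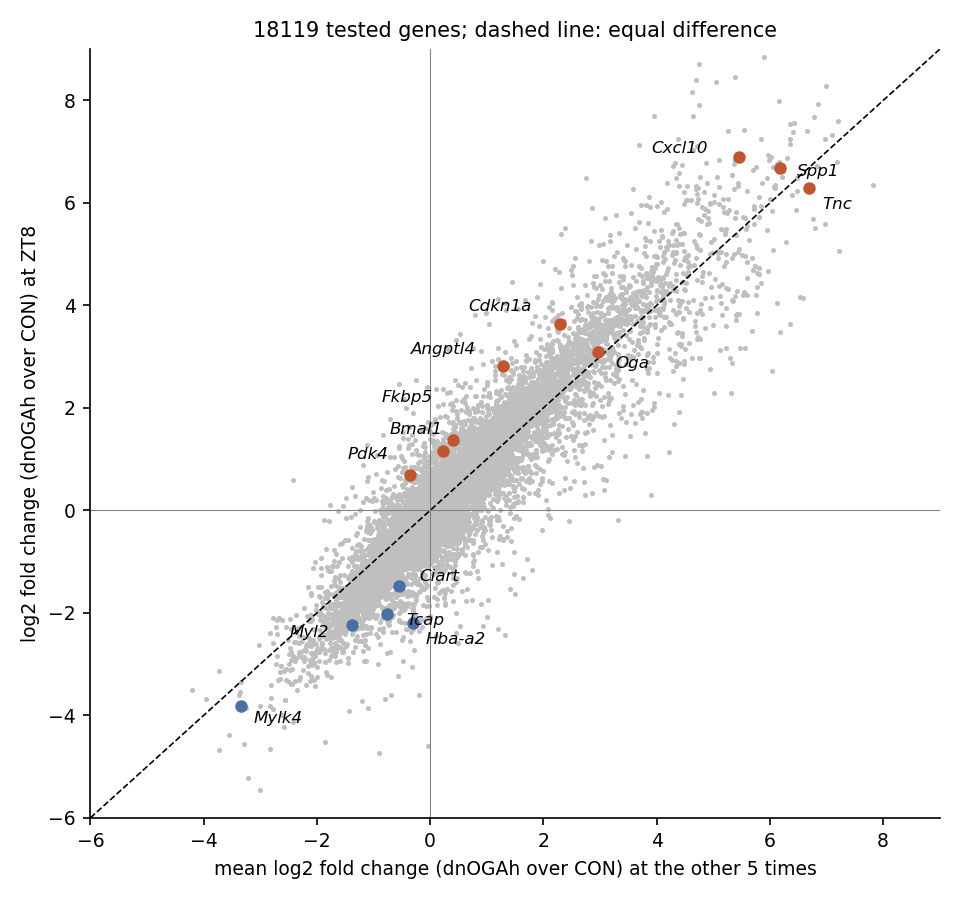
Log2 fold change at ZT8 against the mean log2 fold change at the other 5 times for 18119 tested genes (gray points), with 14 named genes in color (orange, above 0, and blue, below 0 at ZT8); the dashed line marks equal differences. The cloud follows the line (r = 0.93), with Angptl4, Cdkn1a, Fkbp5 and Bmal1 above it and Tcap, Ciart and Hba-a2 below it.

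In the clock, Bmal1 had the smallest p of the 20 transcripts for ZT8 against the other times, with effects of 1.16 and 0.23 and a difference of 0.93 (SE 0.30, unadjusted p = 0.0029, edgeR adjusted p = 0.931). Its effect was -0.29 (ZT0), -0.05 (ZT4), 1.16 (ZT8), 1.48 (ZT12), 0.35 (ZT16) and -0.31 (ZT20), so dnOGAh hearts had more Bmal1 around the daily low and not around the peak. Levels of Bmal1 ran from 23.8 ± 1.54 CPM at ZT0 to 1.09 ± 0.576 CPM at ZT12 in CON and from 19.5 ± 3.71 to 3.02 ± 1.23 CPM in dnOGAh hearts (SD, n = 5). Ciart differed by -0.91 (SE 0.32, unadjusted p = 0.00615, edgeR adjusted p = 0.931), with -1.47 at ZT8, where its CON level was highest (20.7 ± 4.56 CPM), and 0.00 at ZT20, where both groups were at 4.32 and 4.29 CPM. Dbp differed by -0.86, with its CON level also highest at ZT8, at 97.6 ± 25.4 CPM against 32.1 ± 12.6 CPM in dnOGAh hearts. Per2 (-0.73 at ZT8 and 0.04 elsewhere) and Nfil3 (0.42 and -0.11) also had an unadjusted p under 0.05, at 0.0175 and 0.0185.

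**Figure D5:**
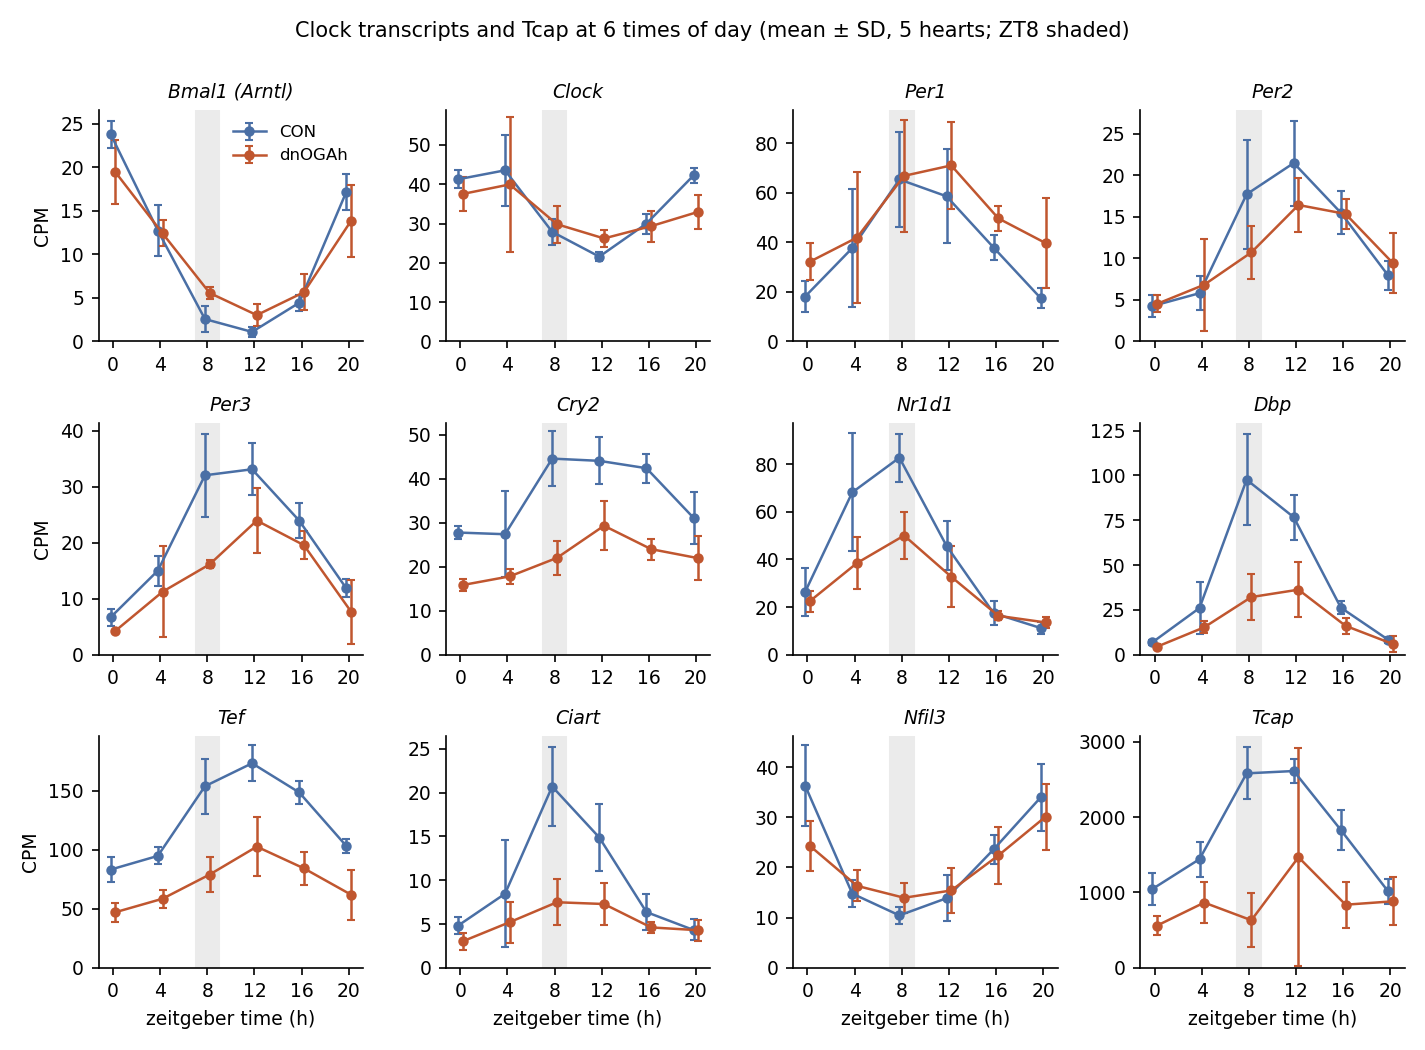
Mean CPM ± SD of 11 clock transcripts and Tcap in CON (blue) and dnOGAh (orange) hearts at 6 times of day, 5 hearts per point, with ZT8 shaded. At ZT8, Dbp had 97.6 CPM in CON and 32.1 CPM in dnOGAh hearts, while Bmal1 was near its low in CON (2.56 CPM) and higher in dnOGAh hearts (5.57 CPM).

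Single transcripts known to respond to hormones, fasting or temperature had a larger difference at ZT8, none of which held after adjustment. Cdkn1a, the p21 cell cycle inhibitor and a glucocorticoid-responsive gene, had 5.94, 19.6, 20.7, 10.8 and 14.0 CPM in CON replicates 1 to 5 and 170.1, 174, 167, 135 and 236 CPM in dnOGAh replicates 1 to 5. It was higher in each dnOGAh heart, with a log2 fold change of 3.64 against 2.30 at the other times. Its CON level was lowest at ZT8 (14.2 ± 6.15 CPM, against means of 23.6 to 44.8 CPM), whereas dnOGAh means stayed between about 150.2 and 180.2 CPM. Fkbp5, a chaperone induced by glucocorticoids, had 7.49, 10.6, 7.93, 12.2 and 11.8 CPM in CON replicates 1 to 5 and 18.7, 43.9, 21.8, 16.8 and 30.04 CPM in dnOGAh replicates 1 to 5. Fkbp5 likewise had its lowest CON mean at ZT8 (10.0 CPM) and differed by 0.99 (SE 0.31, unadjusted p = 0.00236, edgeR adjusted p = 0.931). Klf15, another gene of that list and a clock-linked regulator of cardiac metabolism, went down instead (log2 fold change -1.89), and of the 14 glucocorticoid-responsive genes 6 were higher and 2 lower, 2 had an unadjusted p under 0.05 for ZT8 against the other times, and the list median was smaller at ZT8 (0.16) than in the mean of the other times (0.23).

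Angptl4 and Pdk4 had a difference of 1.53 and 1.05 from the other times, with CON means lowest at ZT8 for both (5.99 and 127 CPM). With 1 ZT8 heart left out, the difference of Angptl4 ran from 0.90 to 2.04. Pdk4 did not pass at ZT8 itself, and at each other time its dnOGAh mean was below its CON mean. Cirbp, the cold-inducible RNA-binding protein, had 69.2, 78.5, 83.8, 91.7 and 98.2 CPM in CON replicates 1 to 5 and 33.9, 41.5, 43.8, 37.7 and 37.3 CPM in dnOGAh replicates 1 to 5. It fell without overlap, by 1.12 on the log2 scale, and differed by -0.54 (SE 0.19, unadjusted p = 0.00522, edgeR adjusted p = 0.931). Rbm3, its relative, was higher instead, at 0.55 (SE 0.19, edgeR adjusted p = 0.0168) with overlap, a call lost in 5 alternatives, among them without CON replicate 1 or 2 or dnOGAh replicate 2 or 5.

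Hemoglobin transcripts were lower at ZT8. Of 8 tested erythroid and platelet markers 5 were lower, the 4 globins and the heme enzyme Alas2 (-1.65), 1 was higher, the platelet chemokine Pf4 (1.24), and the platelet genes Ppbp and Itga2b did not pass, at 1.37 and 0.79 (the last 4 named after their values were seen). Hba-a1, an α-globin of red cells, had 160.1, 226, 122, 51.5 and 42.9 CPM in CON replicates 1 to 5 and 39.9, 15.4, 26.3, 36.0 and 16.3 CPM in dnOGAh replicates 1 to 5. The highest dnOGAh heart was just below the lowest CON heart, and the log2 fold change was -2.17 (SE 0.53, edgeR adjusted p = 0.00062), against -0.72 at the other times. Hba-a2, Hbb-bs and Hbb-bt moved alike, at -2.20, -2.11 and -2.22. Reads that match near-identical copies within a globin family equally can be tallied as not uniquely aligned. Hba-a2 was at -1.58 without CON replicate 2, and the calls of Hba-a1 and Hba-a2 were lost without dnOGAh replicates 1, 2 and 5. All 4 globins had an unadjusted p under 0.05 for ZT8 against the other times (0.00971 to 0.019). Spread was wide within CON hearts, from 83.4 to 432 CPM for Hbb-bs, and the part of blood left in the tissue was not tested. Adipocyte, mesothelial and Schwann cell markers had 0 members that passed.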

How the data were processed

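The deposited values were raw counts per Ensembl gene, which the authors made with Trim Galore 0.6.7, STAR 2.7.10b and HTSeq 2.0.2 on GRCm39, per the submitters' processing notes. The annotation release and strand setting are not given in the sources used here. Of 53700 gene rows, 52093 were named from a GRCm38 gene table, used for names only. The 5 summary rows were left out. Reads without a feature were 3.89% to 6.84%, and ambiguous reads 5.57% to 6.09%, of those tallied in the ZT8 libraries. Reads that did not align uniquely were 11% to 25.8%. Samples labelled ZT24 were taken as ZT0.

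Counts of all 60 libraries in 12 groups were fitted with edgeR 4.0.16 (R 4.3.3) after filterByExpr with a minimum count of 10 and TMM scaling. The quasi-likelihood test gave the ZT8 difference and its contrast with the mean of the other 5 times, with Benjamini-Hochberg adjustment over 18119 genes at 0.05. The standard error of a log2 fold change was taken as its size divided by the square root of F. The fit was tested on simulated counts at CON levels, with changes put into a small set of well counted genes at ZT8. No other genotype effect was simulated, unlike in the data, where 46.1% of genes were called at ZT8. The rates that follow hold for that simpler setting and are not rates for the 8347 calls. For the ZT8 difference the fit recovered 63% of 2-fold and 21% of 3-to-2-fold changes, and 4.55% of the calls were false. For the contrast with the other times it recovered 53% and 11%, with 5.88% of the calls false. A count of 0 genes in that contrast therefore does not show equal effects. Libraries were 1 per heart, and no 2 libraries of a ZT8 group agreed within sampling noise. Depth at ZT8 was 13372360 to 52441717 counts, and counting error, for which no interval is given, adds to the spread of transcripts under about 1 CPM. Single values per library were compared by an exact permutation test.

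The 34 gene lists, the members and the comparison were chosen with earlier results of these data known. Genes were named by rule: Oga, Ogt, all clock and study-named genes, 3 collagens, the 10 highest and 10 lowest log2 fold changes with a mean of at least 5 CPM and no overlap, the 10 smallest p for ZT8 against the other times with a mean of at least 1 CPM at ZT8, and up to 4 members per list by fold change and up to 2 by that p. Some genes that this rule takes are not reported here. Other genes are named as seen afterwards or as members that did not pass. Of several rows with 1 symbol, the highest was used. Log2 ratios per library used an offset of 1 CPM.

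Alternatives were RLE size factors, DESeq2 1.42.0, limma 3.58.1 voom, 2 other filters, robust spread, leave-one-out over the ZT8 libraries, a block for the replicate number, a scaling without mitochondrial, matrix and the 20 highest genes, the library number as a covariate, 57 libraries, the 10 ZT8 libraries alone and other thresholds. The setting with 57 libraries left out the 3 set apart earlier, dnOGAh replicate 3 at ZT12 and replicate 4 of both genotypes at ZT4. Leaving out dnOGAh ZT8 replicates 3 and 4, or 1, 2 and 5, was added after seeing the data. Rhythms over the day were not analysed here.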

Additional observations from a re-analysis of the deposited data

Results flagged for a closer look

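In 10 of 240 groups of 5 ZT8 hearts examined, 1 heart lay far from the other 4, by a gap over more than 0.71 of the range. Chance gives about 1 in 20, or 12, so the number is no more than chance would give. In dnOGAh hearts these were Gfpt2 in replicate 3 (36.7 CPM, the highest), Plcd3 in replicate 3 (14.9 CPM, the highest), Angptl4 in replicate 5 (100.5 CPM, the highest) and Cd3e in replicate 5 (30.2 CPM, the highest).

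In CON hearts Pdk4 was low in replicate 5 (80.4 CPM), Hba-a2 was high in replicate 2 (72.7 CPM), Sprr1a was high in replicate 3 (8.86 CPM) and Efnb3 was high in replicate 1 (69.9 CPM). CON replicate 4 had the most counts (52441717), and CON replicate 1 lay furthest from the mean of the other CON hearts (median absolute log2 difference 0.166). Dropping the heart concerned left the direction of these genes at ZT8 as it was.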

How the results depend on the processing

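Among named genes at ZT8, 2604 of the values under an alternative kept their direction and side of the threshold, 41 lost and 10 gained the call, and 13 changed sign, all 13 in Clock, Npas2, Per1 or Cry1, which had not passed. The count of 8347 genes was 7561 to 8406 with 1 ZT8 heart left out (4138 to 4528 higher and 3391 to 3878 lower), 7550 with a mean of at least 1 CPM, 8340 with the other scaling, 8785 with DESeq2, 8823 with limma voom and 9521 with 57 libraries. It moved further at 2-fold or more, to 4437 (2870 higher, 1567 lower), and without dnOGAh replicates 1, 2 and 5, to 3826 (2512 higher, 1314 lower), where 2 hearts faced 5. The higher share of the calls was 54.1%, and 65.7% in that setting. The contrast of ZT8 with the other times gave 0 genes in each alternative, including 0 with any 1 heart left out and 0 with 57 libraries (1143 with an unadjusted p under 0.05), except 42 (1 more positive, 41 more negative) without dnOGAh replicates 3 and 4. The cause was not tested.

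Npas2 turned positive with RLE (0.0079), DESeq2 (0.019), limma voom (0.13), without CON replicate 2 (0.01) or 3 (0.28), without dnOGAh replicate 1 (0.06) and without dnOGAh replicates 1, 2 and 5 (0.16). Per1 turned negative without CON replicate 2 (-0.03) or 3 (-0.10), dnOGAh replicate 3 (-0.15), or dnOGAh replicates 3 and 4 (-0.22). Cry1 was 0.011 without CON replicate 4. With 1 heart left out, Npas2 ran from -0.14 to 0.28, Per1 from -0.15 to 0.19 and Cry1 from -0.20 to 0.011. Without dnOGAh replicates 1, 2 and 5, Clock was -0.022 and the ZT8-minus-other difference of Slc2a4 was 0.046. With the replicate number as a block, 8403 genes passed at ZT8 and 0 for the contrast. The numbers do not pair the hearts, since deviations of hearts with the same number correlated at -0.0855 to 0.068, and not every number correlated best with itself. Depth limits transcripts near 0 in CON, such as Il1rn and Chil3.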
